A study of Mus musculus with 8 samples.

Results

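Of 51431 sites bound by the glucocorticoid receptor (GR) in mouse liver, 1316 were bound after caloric restriction and after corticosterone, did not meet the criterion for binding in control liver, and carried the forkhead factor FOXO1. These 1316 member sites were chosen by their peaks. GR peaks of 6 libraries that overlapped were joined into sites. A site counted as held by a group if it had a peak in each of the 2 libraries of that group. A member had to be held by the restricted and the corticosterone group but not by the control group, and to share at least 1 bp with a FOXO1 region. Both criteria therefore describe the members and are not findings about them. Across all sites, 9.13% (4694 of 51431) were held by both treated groups and not by controls, and 13.9% (7133 of 51431) overlapped FOXO1. Among the 4694 sites with that pattern of GR peaks, 28.0% overlapped FOXO1.

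All libraries came from whole livers of adult male C57BL/6J mice, with no transgene or deletion in any group. The control mice (ctrl., labelled NR, 2 libraries) were on night-restricted feeding, the restricted mice (cal. res., labelled CR, 2 libraries) received less food than they would eat freely, and the corticosterone mice (CORT, labelled NR+CORT, 2 libraries) were fed at night and given corticosterone, the main glucocorticoid of mice. FOXO1 was mapped in cal. res. livers alone, in 2 libraries that the authors merged into 1 list of 8068 distinct regions, so its values have no replicate spread. Whole liver holds several cell types, and peak lists carry no expression values with which the tissue label could be checked.

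GR is a receptor that binds its hormone in the cytoplasm, moves to the nucleus and attaches to DNA, classically as a dimer on a palindromic glucocorticoid response element (GRE) and elsewhere next to other factors. FOXO1 is a forkhead transcription factor that insulin drives out of the nucleus, so that it is active in the fasted liver, where it is known for promoting gluconeogenesis. FOXA factors, which help to open liver enhancers, bind nearly the same forkhead motif, so a match to that motif does not name the factor.

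The absence of the member sites from ctrl. rested almost wholly on 1 library. Of the 1316 members, 1277 (97.0%, exact 95% binomial interval 95.97 to 97.9) had a peak in ctrl. replicate 1, which held 36234 regions, and lacked one in ctrl. replicate 2, whose list was the shortest with 12458 regions. A further 8 members had a peak in ctrl. replicate 2 alone, and 31 (2.36%, 1.61 to 3.33) had no peak in either ctrl. library. In ctrl. replicate 1 the members had a median at percentile 76.6 of that list by fold enrichment, the deposited ratio of signal to local background. A long list raises such percentiles. Ranked only among sites that cal. res. and CORT both held, the members had a median of 43.3 in ctrl. replicate 1. When ctrl. replicate 2 was left out, 39 members remained by the rule, so ctrl. replicate 1 goes against reading the members as gained over control. The lists of cal. res. held 22707 and 18747 regions and those of CORT 29473 and 39136. File names of the libraries came in 2 styles. The cal. res. libraries shared theirs with ctrl. replicate 2, and the CORT libraries with ctrl. replicate 1. No label calls the styles batches, and for cal. res. against CORT style and treatment cannot be told apart.

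At the edges of the rule, the smallest overlap of a member with FOXO1 was 111 bp and the next smallest 190 bp, whereas the nearest site with the same GR pattern but no FOXO1 lay 101 bp from a FOXO1 region. In 37 members the q-value of at least 1 of the 4 cal. res. and CORT peaks was above 0.05, and the largest was 0.0970. A further 346 FOXO1 sites were held by CORT and not by ctrl. but had a peak in 1 of 2 cal. res. libraries, and 199 were held by cal. res. and not by ctrl. but had a peak in 1 of 2 CORT libraries.

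Sequences of 8 members are shown to give the forkhead motif and the GRE in their setting. Each is the 200 bp around the GR summit, the highest point of the peak, of the library in which the site ranked highest, on the plus strand of GRCm38, the assembly of the mm10 build of the files. Capitals mark the FOX motif (TGTTTAC or TATTTAC, either strand) in the first 6 and the GRE in the last 2. The first 3 are those of the sites named for their height, for lacking a ctrl. peak or for a gene list that held a FOX motif or GRE, the next 3 had the highest FOXO1 fold enrichment among members with a FOX motif, and the last 2 had the highest mean rank among members with a GRE. The last 5 were picked after their values were seen.
Ascc1 and Ddit4 region, chr10:59979246-59979445: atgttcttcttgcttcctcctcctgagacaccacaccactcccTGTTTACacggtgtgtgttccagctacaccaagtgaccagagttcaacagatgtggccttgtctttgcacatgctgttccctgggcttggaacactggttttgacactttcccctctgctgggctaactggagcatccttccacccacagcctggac
Pck1 upstream, chr2:173138459-173138658: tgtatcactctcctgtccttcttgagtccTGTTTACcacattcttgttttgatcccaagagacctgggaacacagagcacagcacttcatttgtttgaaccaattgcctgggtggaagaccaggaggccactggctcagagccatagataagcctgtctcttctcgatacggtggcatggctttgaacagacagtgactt
Prox1 intron, chr1:190147867-190148066: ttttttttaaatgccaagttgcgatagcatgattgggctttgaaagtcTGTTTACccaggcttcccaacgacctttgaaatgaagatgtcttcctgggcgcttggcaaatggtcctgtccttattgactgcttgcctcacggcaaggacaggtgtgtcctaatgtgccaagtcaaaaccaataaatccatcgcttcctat
Rab20 intron, chr8:11459102-11459301: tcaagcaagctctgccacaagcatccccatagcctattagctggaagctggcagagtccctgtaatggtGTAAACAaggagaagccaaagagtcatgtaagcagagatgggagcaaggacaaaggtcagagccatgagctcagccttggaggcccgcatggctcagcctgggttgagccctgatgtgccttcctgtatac
Sult2a8 start, chr7:14438609-14438808: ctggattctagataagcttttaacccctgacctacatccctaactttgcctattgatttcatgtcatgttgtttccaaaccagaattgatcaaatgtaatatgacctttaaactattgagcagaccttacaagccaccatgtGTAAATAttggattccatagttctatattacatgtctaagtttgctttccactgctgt
Plekha6 intron, chr1:133255407-133255606: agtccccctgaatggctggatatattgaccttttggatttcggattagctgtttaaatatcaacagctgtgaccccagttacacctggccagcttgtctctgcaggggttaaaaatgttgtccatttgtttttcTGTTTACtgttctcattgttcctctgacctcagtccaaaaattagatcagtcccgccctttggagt
Zmiz1 intron, chr14:25516137-25516336: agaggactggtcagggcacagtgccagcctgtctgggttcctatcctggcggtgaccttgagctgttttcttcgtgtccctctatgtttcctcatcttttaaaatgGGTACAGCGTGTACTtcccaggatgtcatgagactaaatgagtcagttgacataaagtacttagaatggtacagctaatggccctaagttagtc
Ahcyl1 intron, chr3:107690485-107690684: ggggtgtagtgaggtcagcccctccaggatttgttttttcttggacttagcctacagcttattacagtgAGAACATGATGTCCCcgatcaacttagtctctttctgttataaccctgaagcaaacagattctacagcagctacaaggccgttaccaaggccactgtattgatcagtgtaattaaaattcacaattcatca

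The first sequence lies in intergenic DNA between Ascc1 and Ddit4 (site 59978327 to 59979730 on chromosome 10), 23.8 kb upstream of Ascc1 (ENSMUSG00000044475.14), which encodes a subunit of a transcriptional coactivator complex. It stood at percentile 98.2 and 97.7 of the cal. res. lists, 92.8 and 98.9 of the CORT lists and 89.0 of ctrl. replicate 1. The Pck1 sequence lies in intergenic DNA on chromosome 2, in a site at 173138037 to 173138892, 14.6 kb upstream of Pck1 (ENSMUSG00000027513.11), which encodes the cytosolic enzyme that commits carbon to gluconeogenesis. It was a moderate peak, at percentile 60.4 and 72.9 in cal. res., 53.4 and 69.4 in CORT and 27.9 in ctrl. replicate 1. The Prox1 sequence lies in an intron of Prox1 (ENSMUSG00000010175.13, site 190147339 to 190148496 on chromosome 1), which encodes a homeobox factor of hepatocytes and lymphatic cells. It stood at percentiles 84.4 and 83.3 for cal. res., 52.3 and 93.5 for CORT and 92.0 for ctrl. replicate 1. The CORT replicates thus bracketed the cal. res. values at Prox1.

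The highest FOXO1 fold enrichment of any member with a FOX motif, 44.3, was found in an intron of Rab20 (ENSMUSG00000031504.6, site 11457866 to 11459442 on chromosome 8), which encodes a small GTPase of vesicle traffic. Its GR peak stood at percentile 88.4 and 78.5 of the cal. res. lists and at 27.6 and 62.6 of the CORT lists, with no overlap between the groups. The Sult2a8 sequence, with a FOXO1 fold enrichment of 25.5, lay within 1 kb of an annotated transcription start inside Sult2a8 (ENSMUSG00000030378.15, chromosome 7, site 14438209 to 14439995), a liver sulfotransferase gene, and stood at 83.8 and 76.1 in cal. res. against 55.1 and 66.0 in CORT. The sequence in an intron of Plekha6 (chromosome 1, site 133255084 to 133255760), with a FOXO1 fold enrichment of 23.5, had higher within-list percentiles in CORT, 86.0 and 90.6, than in cal. res., 82.9 and 84.0, but the groups interleaved when ranked over the sites both groups held, with 71.6 and 77.6 in cal. res. and CORT at 70.99 and 72.4. The 2 sequences with a GRE lay in introns of Zmiz1 (ENSMUSG00000007817.15, chromosome 14, site 25515733 to 25517114) and Ahcyl1 (ENSMUSG00000027893.14, chromosome 3, site 107690164 to 107691085). Both stood above percentile 90 in all 4 lists, with the lowest value, 90.1, at Ahcyl1 in CORT replicate 1.

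To ask which DNA sequence the members share, consensus motifs were searched on both strands in 200 bp around the GR summit, and the members were set beside 3378 like sites, which had the same GR pattern but no FOXO1, and 3191 constant distal FOXO1 sites, which were held by all 3 groups, overlapped FOXO1 and lay more than 1 kb from a transcription start. The forkhead motif was more frequent in the members than in either set. A FOX motif was present at 311 of 1316 members (23.6%, exact 95% binomial interval 21.4 to 26.0), at 7.13% of the like sites (6.29 to 8.05), at 17.05% of the constant distal FOXO1 sites (15.8 to 18.4) and at 8.72% of all sites. The members exceeded the like sites by 16.5 percentage points (95% interval 14.0 to 18.95) and the constant distal FOXO1 sites by 6.58 points (3.94 to 9.22). These intervals count sites, which are not replicate animals, and cover counting error only. Without ctrl. replicate 2, when 39 members were left, the differences were 17.4 points (3.77 to 30.95) and 4.21 points (-9.07 to 17.5). For the 31 members with no ctrl. peak they were 20.8 (5.05 to 36.5) and 8.76 (-6.70 to 24.2). In both settings the difference from the constant distal FOXO1 sites gives no direction. With 5 strata of GC content the differences were 15.1 and 5.38 points, and 15.9 and 7.11 points among sites away from transcription starts. The longer form TTGTTTAC, which FOXO factors prefer, was found at 4.41% of members against 0.740% of the like sites and 3.20% of the constant distal FOXO1 sites, and the insulin response element CAAAACAA at 5.78% against 2.49% and 4.36%.

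**Figure D1:**
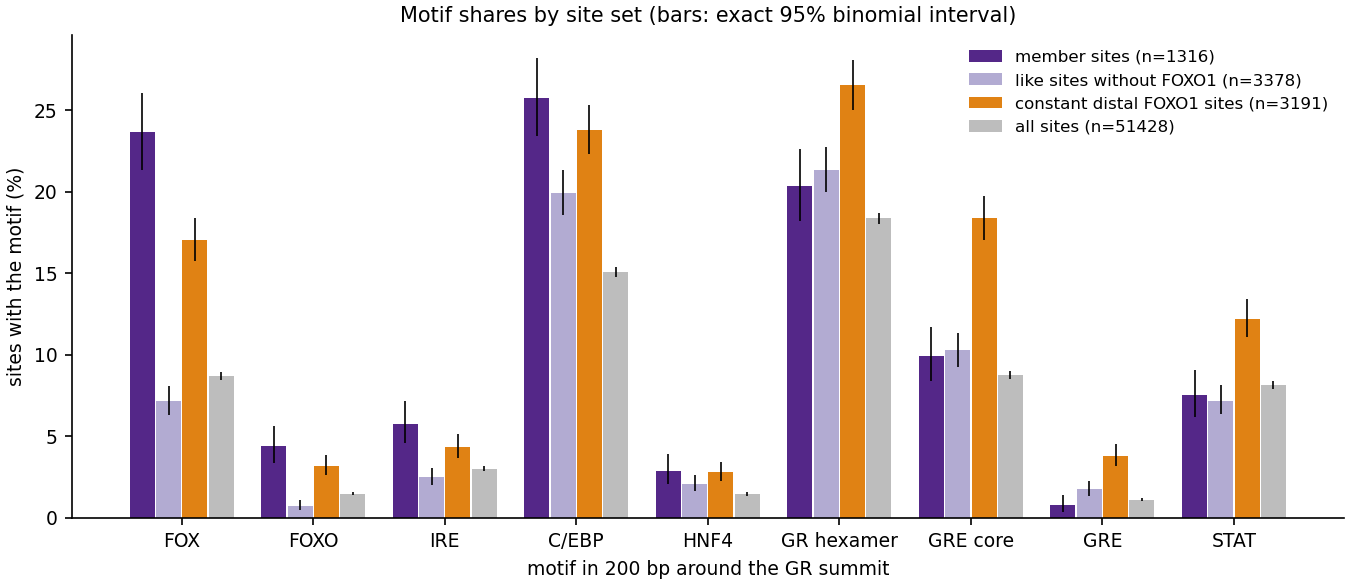
Percent of sites (vertical axis) with each motif (horizontal axis) in 200 bp around the GR summit, for the members, the like sites without FOXO1, the constant distal FOXO1 sites and all sites; lines are exact 95% binomial intervals. The members have the highest bar for FOX (23.6%) and a GRE bar of 0.760%, below the 3.79% of the constant distal FOXO1 sites.

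A full palindromic GRE was present at 10 members (0.760%, 0.365 to 1.39), against 1.78% of the like sites (1.36 to 2.28), 3.79% of the constant distal FOXO1 sites (3.16 to 4.51) and 1.09% of all sites. The difference from the like sites was -1.02 points (-1.66 to -0.369). Its interval held 0 without ctrl. replicate 2 (-4.10, -10.1 to 1.90) and with no ctrl. peak (-4.60, -11.95 to 2.76). It also held 0 with the stronger 50% of FOXO1 regions (-0.718, -1.56 to 0.125). The looser core ACANNNTGT, which keeps both arms of the palindrome without their flanks and also matches every full GRE, was found at 9.95% of members (8.39 to 11.7), close to the 10.3% of the like sites and below the 18.4% (17.03 to 19.8) of the constant distal FOXO1 sites, with 8.74% (8.4996 to 8.99) among all sites. The hexamer AGAACA, 1 arm of the element, was at 20.4%, 21.3% and 26.5% in the same order, against 18.4% of all sites. Of the members, 280 held a FOX motif without the GRE core, 100 the core without a FOX motif, 31 both and 905 neither, so most members (68.8%) held neither string in this window. A missing match says only that these letters were not there.

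Among other factors of the liver, the C/EBP motif TTGCNNAA, bound by regulators of hepatic metabolism, was found at 25.8% of members (23.4 to 28.2), 19.9% of the like sites, 23.8% of the constant distal FOXO1 sites and 15.1% of all sites. The HNF4 motif CAAAGTCCA was at 2.89%, 2.10%, 2.79% and 1.47%. The STAT motif TTCNNNGAA, bound by factors of cytokine and growth hormone signalling, was at 7.52% of members and 7.19% of the like sites, below the 12.2% of the constant distal FOXO1 sites. The HNF1 motif GTTAATNAT was at 1.75% of members, the E-box CACGTG at 4.33%, the D-box TTATGTAA at 1.60%, the CRE TGACGTCA at 0.380%, the ETS motif CCGGAAGT at 0.304% and the PPAR DR1 element at 0.152%. The like sites had 2.16% HNF1, 4.56% E-box, 1.89% D-box, 1.04% CRE, 0.977% ETS and 0.296% PPAR DR1, and all sites 1.33%, 4.72%, 1.54%, 0.665%, 1.23% and 0.181%. Mean GC content of the windows was 47.3% ± 7.47 (SD over sites) in members, 50.6% ± 8.98 in the like sites and 48.8% ± 7.11 in the constant distal FOXO1 sites.

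The position of the motifs was then read against the FOXO1 summit. FOX motifs piled up within 40 bp of it, at 5.07 per 100 members in each 20 bp, against 0.578 at more than 300 bp, a ratio of 8.78. At the constant distal FOXO1 sites the same ratio was 5.54. C/EBP motifs were centred there too, with a ratio of 4.28 in members and 4.09 in the constant sites. The GRE core was centred less in members, at 2.17, than in the constant sites, at 3.48, and the hexamer was flat in members, at 1.01, against 1.71. GR and FOXO1 summits themselves lay close together. The median distance at members was 32 and 39 bp in the cal. res. libraries, 39 and 37 bp in the CORT libraries and 36 bp in ctrl. replicate 1, and between 80.7% and 84.9% of summits in these 5 libraries lay within 100 bp. The cal. res. and CORT means, 35.5 ± 4.95 bp and 38 ± 1.41 bp (SD, n = 2 each), did not separate: their difference was smaller than the SD of the cal. res. replicates and larger than that of the CORT replicates (-2.5 bp, two-sided exact permutation test, p = 1; the smallest p that 2 against 2 allows is 0.333). FOXO1 had to overlap the site, which limits these distances.

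**Figure D2:**
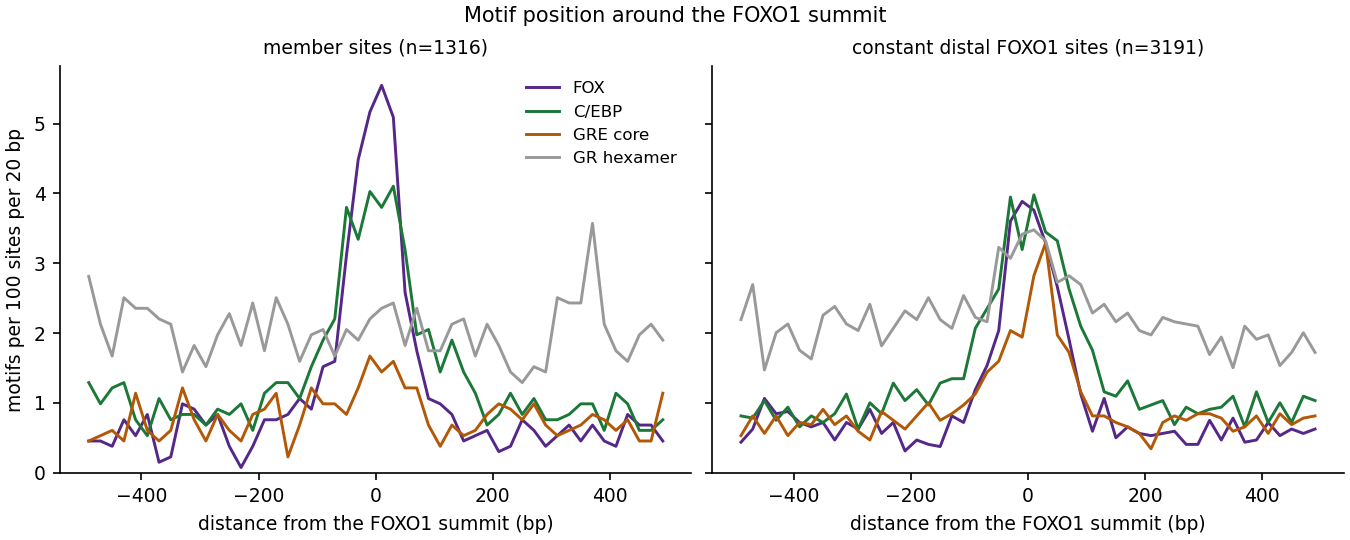
Motifs per 100 sites in 20 bp bins (vertical axis) against distance from the FOXO1 summit in bp (horizontal axis), in members (left, 1316 sites) and constant distal FOXO1 sites (right, 3191 sites). In members FOX and C/EBP rise at the centre while the GR hexamer stays flat, and in the constant sites the GRE core and the hexamer rise as well.

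Members were mostly distal. The centre lay within 1 kb of a transcription start at 132 members (10.03%, 8.46 to 11.8), against 20.1% of the like sites (18.8 to 21.5) and 21.6% of all sites, a difference of -10.1 points (95% interval -12.2 to -7.96) from the like sites. Introns held 628 members (47.7%), intergenic DNA 521 (39.6%) and exons 35 (2.66%). The median distance to the nearest start of a protein-coding gene was 24.4 kb, with quartiles of 7.19 and 75.6 kb, against 18.2 kb for the like sites. Read the other way, FOXO1 was found at 30.5% (29.0 to 32.0) of the 3883 distal sites with this GR pattern and at 16.3% of the 811 at a start. Another member lay near some: 126 (9.57%) had one within 10 kb and 325 (24.7%) within 50 kb. Without ctrl. replicate 2, when 39 members were left, the position difference was 0.440 points (-10.96 to 11.8), which gives no direction.

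The height of FOXO1 was not used by the rule. The median member stood at percentile 45.7 of the FOXO1 list, with a fold enrichment of 5.59 (quartiles 4.83 and 6.87), and the median constant distal FOXO1 site at percentile 64.3, with 6.67 (5.21 and 9.62), a difference of -18.6 points (95% interval over sites -20.8 to -16.5). Constant sites were longer, with a median of 1148 bp against 806.5 bp, and 263 of them overlapped more than 1 FOXO1 region, against 21 members. Among sites of at most 1000 bp the difference was -10.8 points. Members thus carried lower FOXO1 peaks but more often a FOX motif than the constant sites. Constant sites were required to have peaks in both ctrl. libraries, including replicate 2 with the shortest list. Their GR peaks ranked higher among sites that cal. res. and CORT both held. Their cal. res. medians were percentiles 81.5 and 81.4, against 50.2 and 49.4 for members. The CORT medians were 75.2 and 76.3, against 35.7 and 37.0. Whether GR peak height accounts for the FOXO1, GRE, GRE core and STAT differences between these sets was not tested.

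When the members were divided by FOXO1 fold enrichment into 4 bands of 329 sites, the FOX motif became more frequent from band to band, at 12.8% (9.36 to 16.9), 16.7%, 26.7% and 38.3% (33.0 to 43.8). The longer TTGTTTAC went from 2.74% in the lowest band to 9.73% in the highest. The GRE core lay between 9.12% and 10.9%, and the C/EBP motif between 24.01% and 27.96%. Mean GC content went from 48.5% to 46.2%, and its part in the FOX trend was not tested.

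The GR peak calls in the rule did not set cal. res. against CORT, since both groups hold every member. The rule also required a FOXO1 region, however, and FOXO1 was mapped only in cal. res. livers. Members were thus filtered through 1 side of this comparison. Which group ranked higher depended on the scale. On each library's own list, the median member stood at percentile 68.0 and 61.8 in cal. res. against 63.3 and 75.2 in CORT, and the means of 64.9 ± 4.41 and 69.2 ± 8.45 (SD, n = 2 each) did not separate (difference -4.32 points, two-sided exact permutation test, p = 0.667). A longer list places the same peak at a higher percentile, and CORT had the longer lists. The libraries were therefore also ranked over the same 12789 sites that cal. res. and CORT both held, a scale chosen after seeing the data. There the median member stood at 50.2 and 49.4 in cal. res. against 35.7 and 37.0 in CORT. Both cal. res. libraries lay above both CORT libraries, by 13.5 points between means of 49.8 ± 0.553 and 36.3 ± 0.883 (SD, n = 2 each; exact permutation p = 0.333, the smallest this design allows). With 12458 regions in every library the members were chosen anew, leaving 627, of which 74.96% had a ctrl. replicate 1 peak. At that changed set the own-list difference was 10.5 points (exact permutation p = 0.333). In ctrl. replicate 1, ranked over the 12540 sites held by cal. res. and CORT at which it had a peak, the median of 1277 members was 43.3. That value comes from 1 library and from fewer sites than the CORT values, and its difference from them was not tested.

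**Figure D3:**
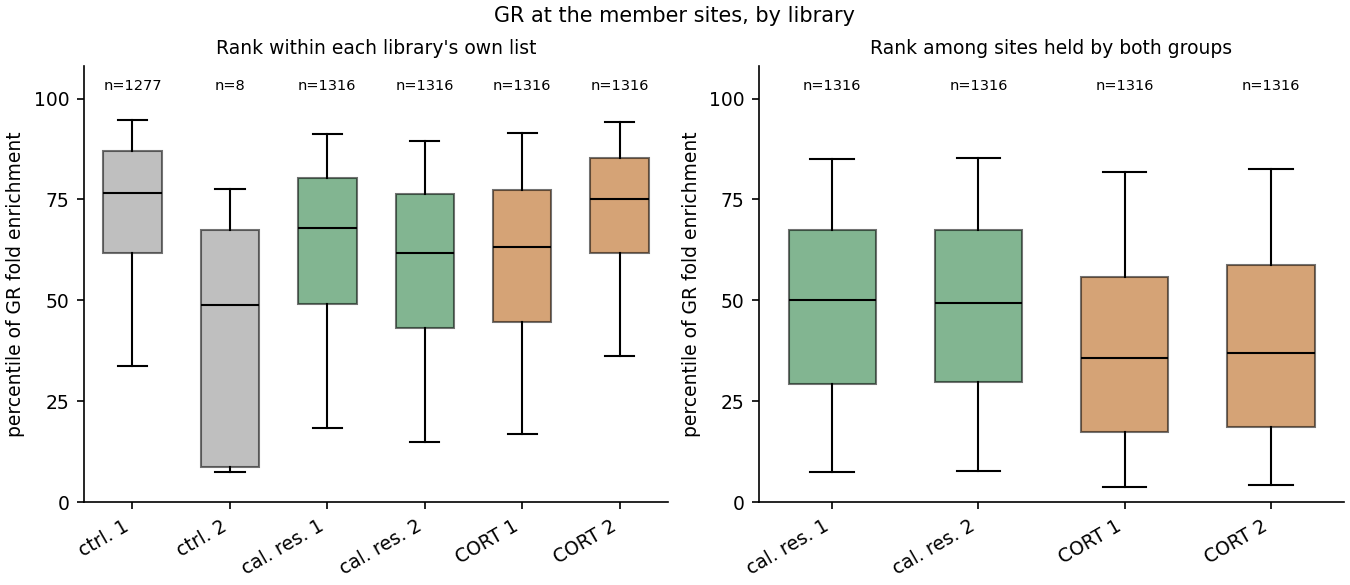
Percentile of GR fold enrichment (vertical axis) at the members in each library, within the library's own list (left) and among the sites held by both cal. res. and CORT (right); boxes are quartiles, the line is the median and whiskers run from the 5th to the 95th percentile of sites. On the right the cal. res. medians are 50.2 and 49.4 and the CORT medians 35.7 and 37.0; on the left the groups interleave.

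Site by site on the common scale, both cal. res. libraries ranked above both CORT libraries at 564 members (42.9%, 40.2 to 45.6), against 28.5% of all 12789 sites, and both CORT libraries above both cal. res. libraries at 182 (13.8%, 12.01 to 15.8), against 24.4%. The like sites without FOXO1 had 27.1% and 20.8%. Position moved with this order. At distal members the shares were 45.4% (42.6 to 48.3) and 10.6%, whereas at the 132 members on a transcription start they were 19.7% (13.3 to 27.5) and 42.4% (33.9 to 51.3). Among distal sites alone, the like sites without FOXO1 had 31.2% (29.5 to 33.0) and 15.8%, and the constant distal FOXO1 sites 40.4% (38.7 to 42.2) and 15.2%. A higher rank in cal. res. was therefore also measured at FOXO1 sites that controls held. Its link to treatment cannot be told apart from the name styles.

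FOXO1 height moved with the order as well. From the lowest to the highest FOXO1 band, the share of members with both cal. res. libraries above both CORT libraries was 36.2% (31.0 to 41.6), 39.5%, 45.3% and 50.5% (44.9 to 56.0), and the opposite share was 18.8%, 13.7%, 11.6% and 11.2%. FOXO1 was mapped in cal. res. livers only. Among distal members, those with a FOX motif had cal. res. on top at 49.3% (43.4 to 55.3) and those without one at 44.2% (40.9 to 47.5), and CORT on top at 7.34% (4.602 to 11.01) and 11.7% (9.66 to 14.0), with overlapping intervals. Within a group the 2 libraries ordered the members more alike than libraries of different groups: Spearman's rho across the 1316 members was 0.663 between the cal. res. and 0.625 between the CORT libraries, and between 0.376 and 0.467 across groups. Sites are not independent replicates, and no p-value is given for these coefficients.

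**Figure D4:**
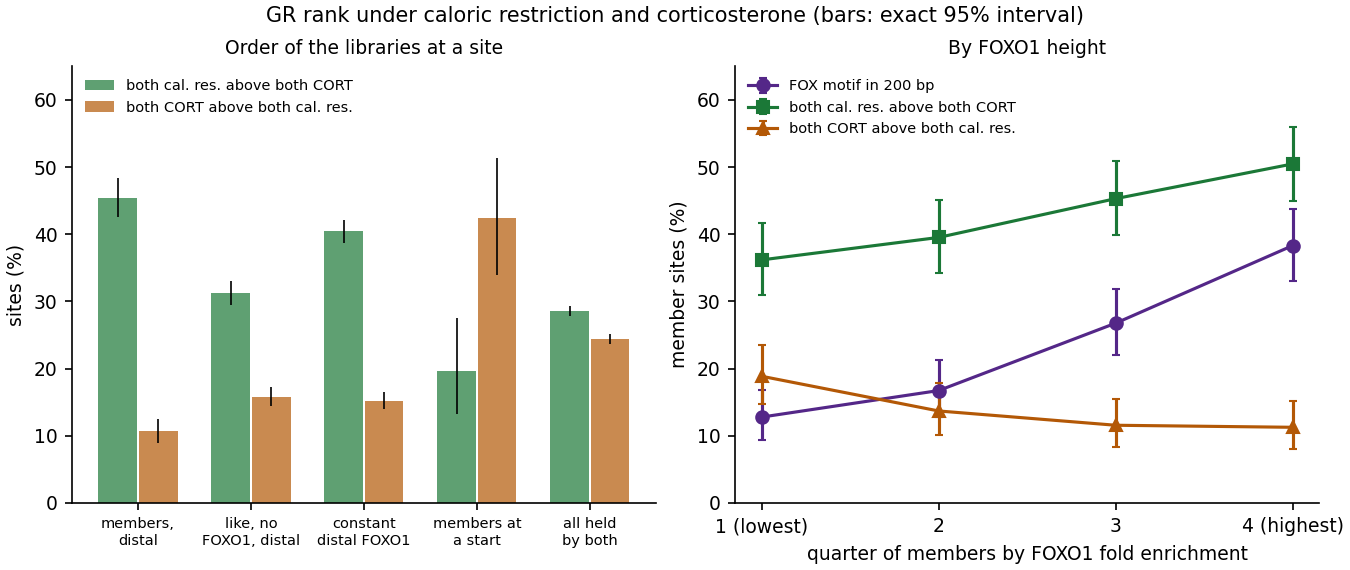
Left, percent of sites (vertical axis) at which both cal. res. libraries rank above both CORT libraries or the reverse, by site set; right, the same shares and the share with a FOX motif in members by FOXO1 band, from lowest to highest fold enrichment. Lines are exact 95% binomial intervals; distal members favour cal. res. at 45.4% and members at a start favour CORT at 42.4%, and the FOX share goes from 12.8% to 38.3%.

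The 5 members with the highest mean percentile over the 4 treated libraries were strong in every treated list, with no value under 92.8. They lay in an intron of Retreg1 (chromosome 15, 25944942 to 25945745), an endoplasmic reticulum autophagy receptor gene, in an intron of Fam222a (chromosome 5, 114572887 to 114573551), in the Ascc1 region described above, in an intron of Fkbp5 (chromosome 17, 28423158 to 28425762) and in an intron of Pitpnm2 (chromosome 5, 124235916 to 124237067), which encodes a phosphatidylinositol transfer protein. Fkbp5 encodes a co-chaperone of GR and is a textbook glucocorticoid target. Its site stood at percentile 96.2 and 95.97 in cal. res., 95.9 and 98.6 in CORT and 54.6 in ctrl. replicate 1, the lowest control value of the 5. The Fam222a and Pitpnm2 sites stood at 96.7 and 96.9 in ctrl. replicate 1, although ctrl. replicate 2 had no peak there. Those values lay within the range of the treated lists, 95.9 to 98.2 at Fam222a and 95.2 to 98.5 at Pitpnm2. The list of ctrl. replicate 1 was longer than those of cal. res., which raises its percentiles.

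The 31 members with no peak in either ctrl. library were weaker. Their median percentiles were 58.5 and 47.6 in cal. res., 52.5 and 64.8 in CORT and 38.1 in the FOXO1 list, and 8 of them held a FOX motif (25.8%, 11.9 to 44.6). The 5 with the highest FOXO1 fold enrichment held no FOX motif and no GRE. The first, with a FOXO1 fold of 13.1, lay 2.74 kb upstream of Cyp2c37 (ENSMUSG00000042248.4, chromosome 19, 39989417 to 39989942), a cytochrome P450 gene, at percentile 45.99 and 13.99 in cal. res. against 44.5 and 67.2 in CORT. The others lay in introns of Arhgef7 (chromosome 8, 11728918 to 11729395) and Syne3 (chromosome 12, 104978419 to 104979120) and in intergenic DNA nearest to Map9 (chromosome 3, 82290325 to 82291401) and Nedd1 (chromosome 10, 92082031 to 92082478), with FOXO1 folds between 7.38 and 10.2. Their GR percentiles ranged from 5.16, at Arhgef7 in CORT replicate 1, to 72.3, at Map9 in cal. res. replicate 1.

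The genes near members were then counted in lists of known function, which had been chosen with earlier results of these data known. Of 16068 protein-coding genes with any GR site within 50 kb of their start, 10.5% (1683) had a member there. The 10 lists held 201 such genes, and 46 of them had a member within 50 kb. Genes of the lists sit among many GR sites, a median of 5 for all genes against 7 to 15.5 in the lists, so members were also read as a share of the sites near each list, against 2.56% of all sites. On that footing glucocorticoid targets had 10 members among 272 sites (3.68%, 1.78 to 6.66), the BCL2 family 5 of 127 (3.94%, 1.29 to 8.95), autophagy 7 of 225 (3.11%, 1.26 to 6.30), gluconeogenesis and amino acid catabolism 9 of 322 (2.80%, 1.29 to 5.24), fatty acid oxidation and ketogenesis 7 of 275 (2.55%) and lipogenesis and sterol synthesis 7 of 288 (2.43%), with intervals that all held 2.56%. Hepatocyte transcription factors had 6 of 297 (2.02%), insulin and FOXO signalling 3 of 213 (1.41%, 0.291 to 4.06) and the circadian clock 1 of 188 (0.532%, 0.0135 to 2.93). STAT, growth hormone and cytokine signalling had 0 of 200, which allows a share of up to 1.5% by 3 counts, and up to 1.83% by the exact interval used for the other lists, against 2.56% of all sites. By gene, these lists had a member at 8 of 20, 4 of 14, 7 of 25, 7 of 20, 7 of 22, 4 of 20, 5 of 19, 3 of 21, 1 of 22 and 0 of 18 genes in the same order. For the last, the exact interval reached 18.5% and held the 10.5% of all genes. Sites near a gene are not independent, which the site intervals leave out.

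**Figure D5:**
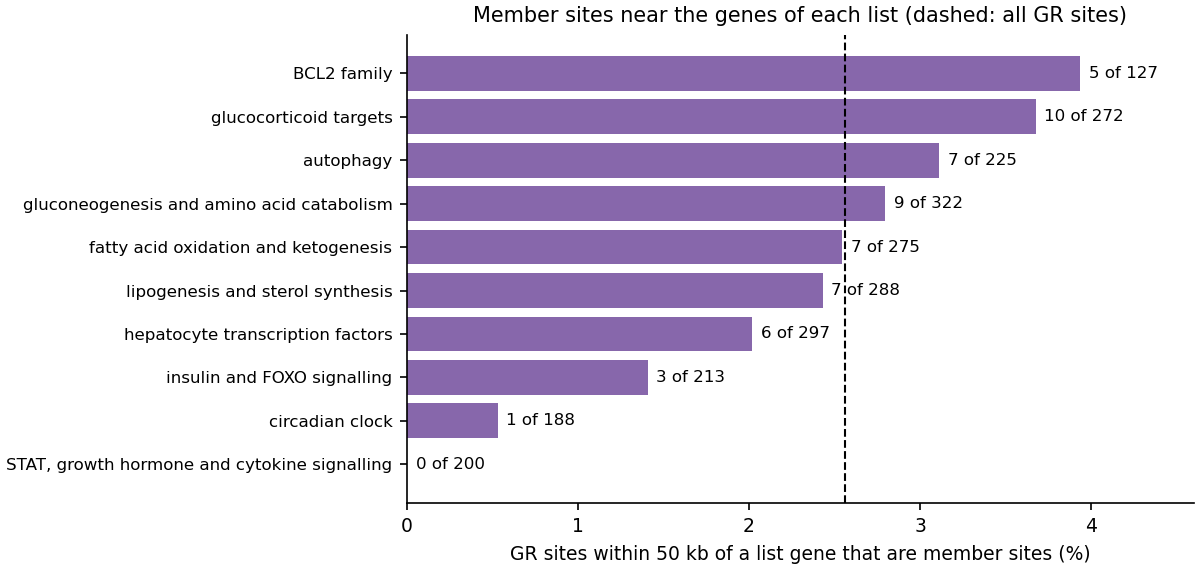
Percent of GR sites within 50 kb of a list gene that are members (horizontal axis), for each gene list (vertical axis), with the numbers of members and of sites; the dashed line is the 2.56% of all sites. Values run from 0 of 200 sites near STAT, growth hormone and cytokine genes to 5 of 127 near the BCL2 family.

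Near metabolic genes, a member upstream of Cyp4a10 (chromosome 4, 115513710 to 115514551, 4.13 kb from the start), a fatty acid hydroxylase gene, stood at 71.4 and 70.9 in cal. res. against 55.1 and 66.6 in CORT on the common scale. In an intron of Acot1 (chromosome 12, 84010123 to 84010920), an acyl-CoA thioesterase gene, the values were 84.2 and 70.5 in cal. res. against 19.5 and 38.7 in CORT, the widest gap between groups among the 4 named sites of this list. The groups interleaved in an intron of Acsl1 (chromosome 8, 46499225 to 46500621), an acyl-CoA synthetase gene. The member at Pck1 had 40.9 and 62.9 in cal. res. against 24.8 and 27.7 in CORT, and the one upstream of Aass (chromosome 6, 23147105 to 23148480), a lysine catabolism gene, 78.0 and 63.3 against 21.7 and 56.0. On the own lists the groups interleaved at Cyp4a10, Pck1 and Aass. At Acot1 cal. res. stayed on top there, at 90.7 and 78.7 against 47.7 and 76.1. Orders named for genes here and below are on the common scale, chosen after seeing the data, unless stated otherwise. Values of ctrl. replicate 1 are left out there, although 97.0% of all members had a peak in it. In an intron of Fbp1 (chromosome 13, 62883016 to 62884524), a gluconeogenic phosphatase gene, the groups interleaved. In Creb3l3 (chromosome 10, 81090559 to 81093453), a fasting-induced hepatic factor, CORT was higher, at 69.2 and 82.0 against 60.0 and 64.2. In an intron of Mlxipl (chromosome 5, 135118464 to 135119069), which encodes the carbohydrate-responsive factor ChREBP, the groups interleaved. Gpam, which encodes the first enzyme of triglyceride synthesis, had 3 named members in introns on chromosome 19. Those at 55102730 to 55103636 and 55110144 to 55111330 had cal. res. on top by less than 1 point (52.4 against 51.8, and 55.5 against 55.3, at the nearest libraries), and the one at 55119479 to 55120288 interleaved.

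Of the 10 members near glucocorticoid targets, CORT was on top at 5, cal. res. at 2, and 3 interleaved. Over all members CORT was on top at 13.8% and cal. res. at 42.9%, and the counts of a single list are small. The sites with CORT on top include 2 neighbouring ones at Gadd45g, which are not independent. CORT was on top at the 4 that were named for this list by their height, whereas the Ascc1 and Ddit4 region, within 50 kb of the list gene Ddit4, had cal. res. on top, with 96.9 and 96.7 against 84.8 and 96.6. Upstream of Mt2 (chromosome 8, 94164743 to 94167940), a metallothionein gene, the common-scale values were 75.5 and 80.3 in cal. res. against 83.9 and 95.9 in CORT. Downstream of Gadd45g (chromosome 13, 51870951 to 51871725 and 51872131 to 51873695), a growth arrest gene, they were 54.5 and 55.8 against 72.4 and 76.3 at the first site and 41.9 and 37.1 against 87.6 and 88.8 at the second. In an intron of Fkbp5 (chromosome 17, 28502007 to 28503156) they were 50.2 and 29.1 against 66.1 and 87.8. The groups did not overlap at any of these 4, whereas the stronger Fkbp5 intron site described above interleaved, with 93.6 and 94.2 against 91.1 and 95.6. Of the 41 named members in all, cal. res. was on top at 19 and CORT at 9, and they were picked partly by height. Beside this, the shares were 42.9% and 13.8% of all members, and 28.5% and 24.4% of all 12789 sites held by both groups.

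Of the 7 members near autophagy genes, cal. res. was on top at 3 and CORT at 3. Over all members the shares were 42.9% and 13.8%, and over all 12789 sites 28.5% and 24.4%. The counts for this list and for the BCL2 family below are too small to set a list apart. At the start of Gabarapl1 (chromosome 6, 129532495 to 129533778), an autophagosome gene, cal. res. stood at 92.8 and 93.3 and CORT at 48.3 and 48.5, and at Bnip3 (chromosome 7, 138901971 to 138902661), a mitophagy receptor gene, at 19.2 and 36.03 against 14.9 and 16.1. On the own lists the groups interleaved at Bnip3, and cal. res. stayed on top at Gabarapl1. In Atg16l1 (chromosome 1, 87778971 to 87780445) and Atg14 (chromosome 14, 47562418 to 47563465), which encode parts of the machinery that forms the autophagosome, CORT was higher, with 79.7 and 82.9 against 26.2 and 33.8 and with 48.1 and 54.1 against 0.387 and 23.9. At the 5 members near BCL2 family genes, cal. res. was on top at 4, among them at Bcl2l11 (chromosome 2, 128174023 to 128175426), with 80.6 and 79.7 against 68.1 and 46.6, at Bok (chromosome 1, 93693455 to 93694290), with 59.3 and 64.8 against 17.3 and 40.9, and at an intron of Bcl2l1 (chromosome 2, 152814147 to 152815111), with 72.4 and 67.8 against 36.5 and 67.5. A second member of Bcl2l1, in an exon at 152827115 to 152829686, had interleaved values. On the own lists the groups also interleaved at Bok and the intronic Bcl2l1 site, and cal. res. stayed on top at Bcl2l11. Bcl2l11 and Bok promote apoptosis, and Bcl2l1 encodes the survival factor BCL-XL.

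Of the factors that define hepatocytes, Foxa2 (chromosome 2, 148025350 to 148026367) had a member with cal. res. on top, at 78.1 and 75.05 against 17.7 and 40.6. In an intron of Onecut2 (chromosome 18, 64350192 to 64351320), which encodes the homeobox factor HNF6 beta, CORT was on top, at 82.2 and 84.4 against 78.0 and 71.1. The single clock gene with a member was Cry2 (chromosome 2, 92445878 to 92447114, 12.5 kb upstream), a repressor of the clock, with 61.4 and 43.7 in cal. res. against 44.1 and 17.1 in CORT, which overlapped. Its FOXO1 peak was weak, at percentile 0.886 of the list. Near Pdk4 (chromosome 6, 5470850 to 5471583), a FOXO1 target that limits glucose oxidation, the values were 44.4 and 18.5 against 5.23 and 8.04. The groups interleaved there on the own lists, at 63.2 and 30.4 against 21.1 and 46.6. In an intron of Pik3r1 (chromosome 13, 101717950 to 101719989), which encodes a regulatory subunit of the insulin signalling kinase PI3K, the replicates of each group differed widely, with 74.6 and 7.07 in cal. res. against 86.8 and 16.5 in CORT.

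The genes with the most members within 50 kb had 4. Slc27a2 (ENSMUSG00000027359.16, chromosome 2, 126552407 to 126588243), a fatty acid transporter and acyl-CoA synthetase gene of the liver, had 4 of its 26 sites, of which 3 held a FOX motif. The strongest, 2.68 kb upstream at 126549375 to 126550080, held a FOX motif, the GRE core and a C/EBP motif and stood at 95.1 and 92.6 in cal. res. against 91.8 and 77.1 in CORT on the common scale. The intronic one at 126555132 to 126556371 had the highest FOXO1 fold of the 4, 15.7, with 55.6 and 78.0 in cal. res. against 21.0 and 38.7 in CORT. On the own lists the groups interleaved at both of these sites. The neighbours Rusc2 (ENSMUSG00000035969.15) and Fam166b (ENSMUSG00000042788.12) on chromosome 4 shared the same 4 members, at 43380453 to 43423928. Another 14 genes had 3 members each, among them, in alphabetical order, A1cf (ENSMUSG00000052595.8), a cofactor of apolipoprotein B mRNA editing, and A2ml1 (ENSMUSG00000047228.9), a protease inhibitor gene.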

How the data were processed

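GR and FOXO1 ChIP-seq peak lists of mouse liver were analysed. Per the methods of the study, reads were aligned to mm10 with BWA, duplicates and multiply mapped reads were removed, and peaks were called with MACS2 in each GR library and on merged FOXO1 libraries. The largest deposited q-value was 0.0994 to 0.0998 in the GR lists and 9.84e-06 in the FOXO1 list. Peak heights are the fold enrichment that the authors deposited, the ratio of signal at the summit to the local background, which can be compared within a list. Deposited on a -log10 scale were each peak's p-value and q-value. Peak height depends on depth, which the lists do not give, and the use of an input control was not given in the sources used here.

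Regions with several summits were reduced to the one with the highest fold, and sites were merged from regions sharing at least 1 bp. All region ends lay within the GRCm38 chromosomes. Genes came from GENCODE M21 (basic), and 3 sites outside chromosomes 1 to 19, X and Y were left out of positions and motifs. Motifs were 15 consensus strings. Percentiles rank fold enrichment. Libraries were compared with two-sided exact permutation tests, and site shares carry exact (Clopper-Pearson) 95% intervals, with normal-approximation intervals for differences. Groups followed the titles in the labels. Replicates are separate libraries, not stated in the labels to be separate animals, so p-values measure only the spread between them. Named sites were the 5 of highest mean percentile, the 5 without a ctrl. peak and of highest FOXO1 fold, up to 4 per gene list, of highest mean percentile among members whose nearest gene start, within 50 kb, was of a list gene, and the 5 genes with most members, with ties broken by name. Some named sites are not reported here. Members, lists and motifs were chosen with earlier results of these data known. Alternatives were a q-value of at most 0.01, equal list sizes, stricter FOXO1 overlap or height, no ctrl. peak, short sites, other windows and leaving out each library. Statistics were tested on simulated data. Analyses ran in Python 3.11.15 with pandas 2.3.3, pysam 0.24.0, SciPy 1.17.1, matplotlib 3.10.9 and NumPy 2.4.6.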

Additional observations from a re-analysis of the deposited data

How the results depend on the processing

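Leaving out 1 library at a time moved the number of members between 39 and 1572, with 39 left without ctrl. replicate 2. It moved the within-list difference between cal. res. and CORT between -10.1 and 1.85 points (1.85 without CORT replicate 2), the summit distance difference between -6 and 1.5 bp (1.5 without cal. res. replicate 1 and 0.5 without ctrl. replicate 2), and the share of members with a ctrl. replicate 1 peak between 95.8% and 96.5%. That share is fixed when a ctrl. library or ctrl. peak is excluded and was not computed there. The difference at transcription starts ranged from -11.7 to 0.440 points, the genes with a member from 0.330% to 12.8%, the FOX difference from the like sites from 16.4 to 17.8 points and from the constant distal FOXO1 sites from 4.21 to 7.41, the GRE difference from -4.10 to -0.704, and the FOXO1 percentile difference from -20.01 to -17.01. With 12458 regions per list there were 627 members, 74.96% with a ctrl. replicate 1 peak, a within-list difference of 10.5 points, a GRE difference of -2.38 and 6.32% of genes. Where either library of a group sufficed, 118 members were left. Requiring no peak in either ctrl. library left 31, with differences of -26.2 in FOXO1 percentile, -0.378 at starts, 20.8 in FOX and -4.60 in GRE, and 0.243% of genes. The stronger 50% of FOXO1 regions gave 580 members, a FOXO1 difference of -9.42, FOX differences of 24.5 and 13.1, and 4.67% of genes. Sites of at most 1000 bp gave -10.8 in FOXO1 percentile and 7.02% of genes, a q-value of at most 0.01 gave 11.8% of genes, a gene window of 10 kb gave 3.86%, and a motif window of 100 bp a FOX difference of 9.86. On the common scale, chosen after seeing the data, the within-list difference became 13.5 points. Restriction to distal sites, also added later, moved no difference beyond its interval. Except where the construction sets a value, the cause was not tested.

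With the replicate number as a block (replicate block), the within-list difference was -4.32 points and the summit difference -2.5 bp (exact permutation p = 1 for each). The numbers name libraries and are not stated to pair animals. With 2 libraries per group no comparison between groups could pass a threshold of 0.05. The lists give no read depth, so a missing peak is one not called and not absence of binding. FOXO1 was mapped in 1 group and has no replicate spread.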
